A study of Mus musculus with 11 samples.

Results

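Tyrobp loss was estimated here from all 11 of the 11 RNA sequencing samples of microglia at once. An additive model gave each gene 1 coefficient for the Tyrobp genotype and 1 for the Inpp5d genotype. The Tyrobp coefficient set 5 samples without Tyrobp against 6 with intact Tyrobp, a larger contrast than the 2 against 3 or 3 against 3 samples within a single Inpp5d genotype. Every mouse carried NLGF, a set of App knock-in alleles that leads to amyloid deposition, on a C57BL/6 background, so there was no group without amyloid. Tyrobp was intact in NLGF (3 samples) and in Inpp5d+/-;NLGF (3). It was absent in Tyrobp-/-;NLGF (2) and in Tyrobp-/-;Inpp5d+/-;NLGF (3), the last called the compound genotype below. Age was 9 to 10 months, and live CD11b+/CD45+ cells from brain had been collected as microglia. This gate also admits other myeloid cells. The labels name no Cre driver or transgene promoter, and do not say how samples relate to litters or to pools of animals. P values therefore measure the spread between these samples, which may in part be technical. Sample titles carry numbers, which lay in separate ranges for Tyrobp-/- and Tyrobp-intact samples, so the genotype and any handling or litter that followed those numbers cannot be told apart.

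As background, Tyrobp encodes DAP12, a small transmembrane adaptor that carries the signal of several myeloid receptors, TREM2 among them. Ligand binding leads to phosphorylation of its ITAM motif, recruitment of the kinase SYK and activation of PI3K and PLCG2. Inpp5d encodes SHIP1, a phosphatase that removes the lipid product of PI3K. In amyloid models, TREM2 and DAP12 are known to be needed for the passage of microglia from the homeostatic to the disease-associated (DAM) state, in which lipid, lysosomal and secreted-protein genes are raised.

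Total counts ran from 29490567 to 66637052 per sample, 20203 to 22662 genes had counts, and 20390 of 55401 genes passed the filter on low counts. No pair of samples held identical values. The first dimension of multidimensional scaling (21.2% of the variance) put the 5 Tyrobp-/- samples at 0.482 to 3.29 and the 6 others at -2.11 to -0.888. On the second dimension compound replicate 1 lay far from the rest, at -3.85 against -0.237 to 1.08 for the other 10. Tyrobp-/-;NLGF replicate 1 and compound replicate 2 held the most transcript of the neutrophil gene S100a8, and are called the S100a8-rich pair below. Microglial identity genes were abundant in all samples: P2ry12 was at 4880 to 7400 CPM (counts scaled to a common library size with TMM) with intact Tyrobp and at 5100 to 6590 without, and Sall1 at 124 to 207 and 143 to 160. Neither gene passed the test. Because these are bulk samples, fewer cells of a type and less RNA per cell cannot be told apart.

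The targeted gene was examined first. Tyrobp (chromosome 7, 30413760 to 30417585, GRCm38) ran from 1950 to 2560 CPM in the 6 Tyrobp-intact samples, with a median of 2100. In the Tyrobp-/- samples it was at 8.94 and 7.01 CPM in Tyrobp-/-;NLGF replicates 1 and 2 and at 3.22, 8.39 and 3.88 CPM in compound replicates 1 to 3. The values of these 5 samples are given in this order throughout. Every Tyrobp-/- sample was far below every other sample, and the coefficient was -8.43 on the log2 scale (SE 0.32, adjusted p = 8.51e-07). Hcst encodes DAP10, a second adaptor, and lies next to Tyrobp on the opposite strand. Hcst ran from 31.8 to 55.4 CPM (median 45.9) with intact Tyrobp and was at 13, 11, 4.62, 12.4 and 6.09 CPM without, with no overlap (log2 fold change -2.26, SE 0.269, adjusted p = 0.0012). The library kit does not mark strand, so reads of neighbouring genes on opposite strands may be mixed where they overlap. Trem2, the receptor gene itself, did not pass (1960 to 2690 CPM, median 2370, against 2020, 2050, 2130, 2010 and 2250 CPM; adjusted p = 0.405). Inpp5d was at 321 ± 120 CPM (SD, n = 5) without and 274 ± 92.3 CPM (n = 6) with Tyrobp (adjusted p = 0.57). App was at 86.4 ± 11.7 and 88.5 ± 16.1 CPM (adjusted p = 0.937), and its sign was not stable when samples were left out.

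The pooled coefficient passed an adjusted p of 0.05 in 1094 of 20390 genes (5.37%). Of these, 500 were higher (2.45% of genes tested) and 594 lower (2.91%) without Tyrobp. These shares are the background for each list count below, and no list was tested as a set. In what follows a gene that passed this test is said to have risen or fallen. Within a single Inpp5d genotype the same model with 1 coefficient per group called 176 genes (0.863%) with both Inpp5d copies and 183 genes (0.897%) on the Inpp5d+/- background. These contrasts share their samples with the pooled coefficient, and the calls within both copies fell to 29 and on Inpp5d+/- to 52 without the S100a8-rich pair. Of the 1094 genes, 848 were called in neither, 422 of them higher and 426 lower. Among the 10825 genes that reached 5 CPM on average in either Tyrobp genotype, the median SE of the log2 fold change was 0.18 in the pooled fit, 0.271 with both Inpp5d copies and 0.242 on Inpp5d+/-. Many of the pooled calls were small: 346 of the 1094 were changes of under 1.5-fold. Without overlap between the 5 and the 6 samples were 839 called genes (360 higher, 479 lower), against 1258 (6.17%) of all genes tested. Genes named below were mostly chosen by small p, small SE or, for the largest changes, lack of overlap itself. A lack of overlap in them therefore describes their values and adds no support to the calls. The size of the total depended on single samples, and was 611 without Tyrobp-/-;NLGF replicate 2, 613 without Tyrobp-/-;NLGF replicate 1 and 720 without compound replicate 2. All 1094 genes kept their direction in those fits. The fit without the S100a8-rich pair, 2 of the 5 Tyrobp-/- samples, called 351 genes (117 higher). There the SE of the 594 decreases had a median of 0.16, where the main fit gave 0.133. Their log2 fold changes had medians of -0.753 and -0.744. For the 500 increases the SE medians were 0.191 and 0.16, and the fold change medians 0.781 and 0.825. List counts without the pair are read against these 351 calls. Whether any list lost more calls than other genes was not tested. Some called genes carried nearly the same estimate, such as Ugt1a10 (-0.5225), Ugt1a9 (-0.5201) and Ugt1a2 (-0.5231). Whether such genes share reads was not tested, so the 1094 may count some signals more than once.

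**Figure D1:**
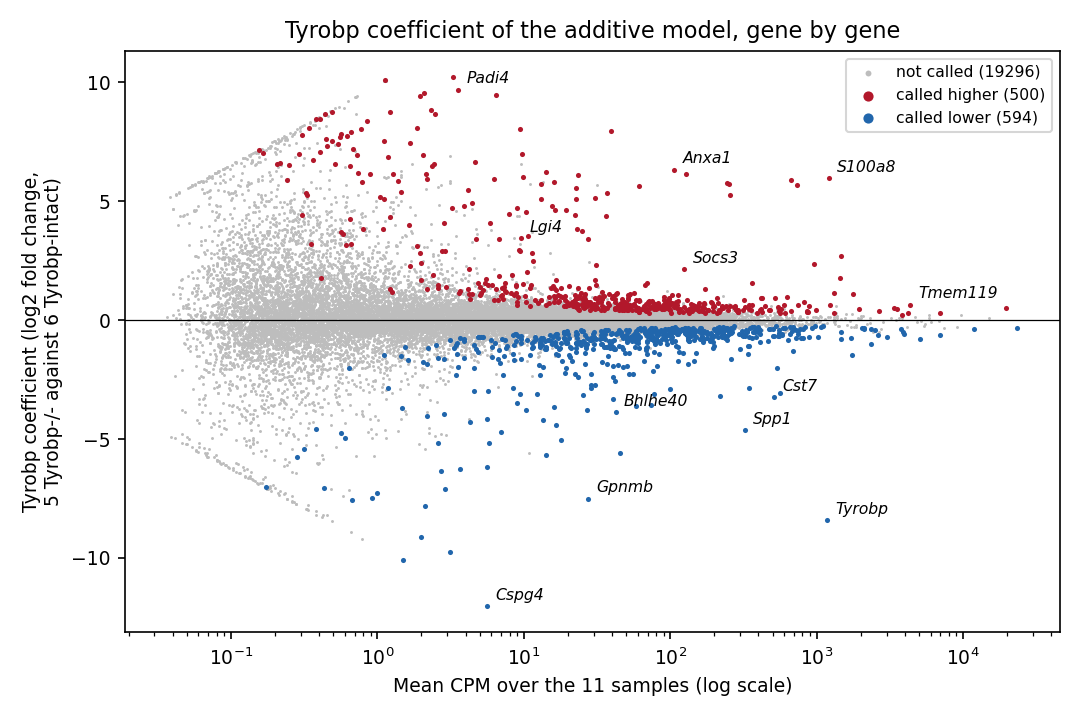
Tyrobp coefficient of the additive model (log2 fold change, vertical axis) against mean CPM over the 11 samples (log scale) for the genes tested, with the 500 called higher in red, the 594 called lower in blue and the others in grey. The abundant called genes lie close to 0, and the largest fold changes belong to genes of low mean level or, as for Spp1 and S100a8, to abundant genes that differ strongly between the Tyrobp genotypes.

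The additive model assumes 1 Tyrobp effect in both Inpp5d genotypes. The interaction term, which tests this gene by gene, passed for 0 genes (0%) in edgeR, with 958 genes at an unadjusted p under 0.05. With Tyrobp-/-;NLGF replicate 2 left out Gpnmb passed (adjusted p = 0.0495), and with compound replicate 1 left out Mamdc2 passed (adjusted p = 0.000594). An interaction that misses the threshold does not show equal effects, and in several DAM genes the estimate was further from 0 with both Inpp5d copies. Spp1 had log2 fold changes of -5.33 with both copies and -4.08 on Inpp5d+/-, Igf1 of -4.29 and -3.04, and Clec7a of -2.61 and -1.57. Bhlhe40 went the other way, at -3.34 and -4.32. Over whole lists, the median log2 fold change with both copies and on Inpp5d+/- was -2.61 and -2.37 for DAM stage 2, -0.80 and -0.99 for cholesterol synthesis and 0.17 and 0.13 for homeostatic genes. The Inpp5d coefficient of the same additive model passed for 0 genes in edgeR (1005 at an unadjusted p under 0.05).

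**Figure D2:**
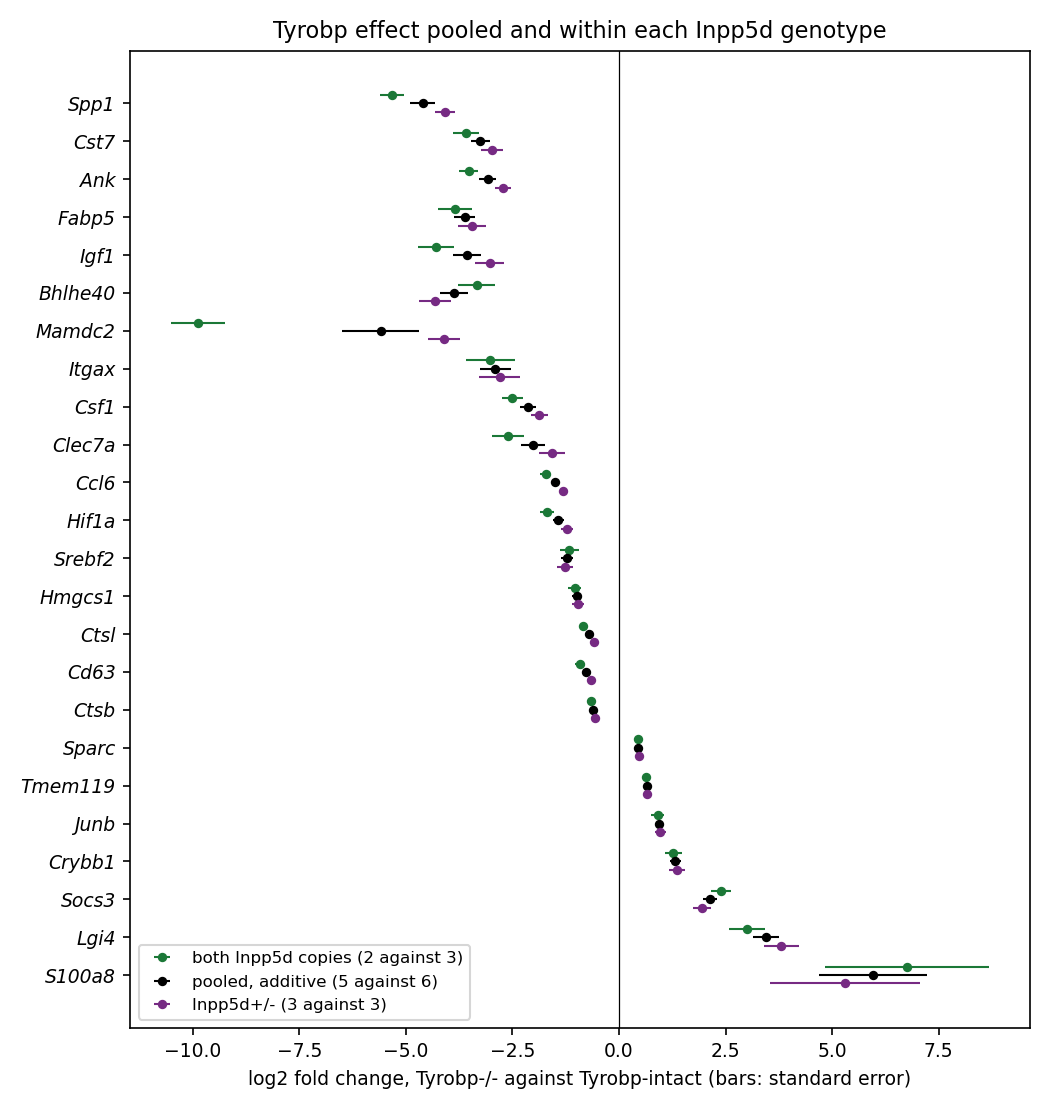
Log2 fold change between Tyrobp-/- and Tyrobp-intact samples for 24 genes, as the pooled coefficient (black, 5 against 6 samples) and within both Inpp5d copies (green, 2 against 3) or Inpp5d+/- (purple, 3 against 3), with bars of 1 standard error. Each gene has the same sign in the 3 estimates, Mamdc2 shows the widest gap between backgrounds and S100a8 the widest error bars.

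The DAM programme fell. In the DAM stage 2 list, whose induction is known to depend on TREM2, 24 of 25 genes fell and 0 rose. The median of their log2 fold changes was -2.84, against 0.03 over all genes tested. The member that did not pass was Cd9, a tetraspanin gene (log2 fold change -0.30, adjusted p = 0.155). The mean of the list per sample, as a log2 difference from the Tyrobp-intact mean, was -2.89, -3.11, -2.92, -2.64 and -2.09 in the Tyrobp-/- samples, where the other 6 lay between -0.08 and 0.10. Without the S100a8-rich pair, 21 of the 25 fell (median -2.68), and 9 (median -2.45) with the mean of the neutrophil list as a covariate. The covariate fit called 57 of 20390 genes in all. The list came from published DAM signatures and was chosen with earlier results of these samples known.

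Among secreted DAM products, Spp1, the matrix protein osteopontin, ran from 500 to 646 CPM (median 574) with intact Tyrobp and was at 11.5, 15.9, 25.5, 34.5 and 44.1 CPM without (log2 fold change -4.61, SE 0.283, adjusted p = 3.02e-05). The compound samples lay above both Tyrobp-/-;NLGF samples, and all 5 were more than 10-fold below the lowest intact sample. Igf1, an insulin-like growth factor, ran from 107 to 146 CPM (median 126) and was at 6.25, 7.31, 7.29, 21 and 15.3 CPM (log2 fold change -3.57, SE 0.333, adjusted p = 0.000256). Csf1, the microglial growth factor M-CSF, ran from 90.2 to 146 CPM (median 116) and was at 19.2, 20.4, 31.5, 29.1 and 39.4 CPM (log2 fold change -2.14). Neither gene overlapped between the Tyrobp genotypes. Cst7, the cystatin F inhibitor of cathepsins, fell from 857 ± 127 to 95 ± 38.9 CPM (adjusted p = 4.02e-05, log2 fold change -3.25, SE 0.214). The chemokine gene Ccl6 ran from 2070 to 2840 CPM (median 2410) and was at 759, 732, 927, 1030 and 1010 CPM (log2 fold change -1.49, SE 0.102, adjusted p = 5e-05). Dkk2, a Wnt pathway inhibitor, was at 3.47 to 8.58 CPM with Tyrobp and at or below 0.181 CPM in every sample without.

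Of the wider list of 28 secreted and matrix genes, 22 passed the filter and 13 of these fell, and none rose (median log2 fold change -1.37). After removal of the S100a8-rich pair, 9 fell. Besides Spp1, Igf1, Csf1, Cst7 and Dkk2 the list shares several members with the DAM list. Lox, which encodes lysyl oxidase, a cross-linker of collagen and elastin, ran from 21.3 to 44.6 CPM (median 30.6) and was at 0.358, 0, 0.64, 1.23 and 5.05 CPM. Mamdc2, an extracellular proteoglycan gene, ran from 70.2 to 96.6 CPM (median 82.3). Without Tyrobp it was at 0.0996 and 0.074 CPM in Tyrobp-/-;NLGF but at 2.07, 6.51 and 5.19 CPM in the compound samples (log2 fold change -5.59, SE 0.901, adjusted p = 0.00579). Compound samples thus lay above the Tyrobp-/-;NLGF samples and below every Tyrobp-intact sample. Several genes of lower level were close to absent without Tyrobp: Hs3st1, a heparan sulfate sulfotransferase gene, was at 1.59 to 15.8 CPM with Tyrobp and had counts in only 1 Tyrobp-/- sample (0.0185 CPM). Lgi2, a secreted leucine-rich repeat gene, was at 10.4 to 44.3 CPM and at 0, 0.314, 0.0188, 2.05 and 0.865 CPM.

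Membrane proteins and receptors of the DAM state fell as well. Itgax, the integrin subunit CD11c, ran from 143 to 183 CPM (median 164) and was at 16.4, 24.1, 7.7, 20.5 and 42.2 CPM (log2 fold change -2.90, SE 0.358, adjusted p = 0.00142). Clec7a, the beta-glucan receptor dectin-1, ran from 574 to 1240 CPM (median 741) and was at 183, 126, 181, 194 and 320 CPM (log2 fold change -2.02, SE 0.283, adjusted p = 0.0028). Both showed no overlap, and in both compound replicate 3 was the highest of the Tyrobp-/- samples. Gpnmb, a transmembrane glycoprotein of lipid-laden phagocytes, was at 39.4 to 60.7 CPM (median 50) with Tyrobp. Without Tyrobp it reached 1.45 CPM in Tyrobp-/-;NLGF replicate 1 and at most 0.0804 CPM in the other 4. Ank, a pyrophosphate transporter gene, ran from 829 to 1020 CPM (median 937) and was at 80.2, 83.1, 102, 139 and 177 CPM (log2 fold change -3.08, SE 0.195, adjusted p = 3.02e-05). Tmem163, a zinc transporter gene, ran from 14.7 to 30 CPM (median 25.8) and was at 1.04, 1.22, 0.716, 2.45 and 1.01 CPM (log2 fold change -4.20). The tetraspanin gene Cd63, a marker of late endosomes, fell by less, from 1800 ± 134 to 1060 ± 105 CPM (adjusted p = 0.000327, log2 fold change -0.78, SE 0.0757). Other members that fell included Lpl (-3.19), Ch25h (-3.31), Axl (-2.85) and Lilrb4a (-1.93, all log2 fold changes). Ch25h and Axl did not pass without the S100a8-rich pair (adjusted p = 0.08 and 0.0816), and Axl lies within 10 Mb of Tyrobp.

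**Figure D3:**
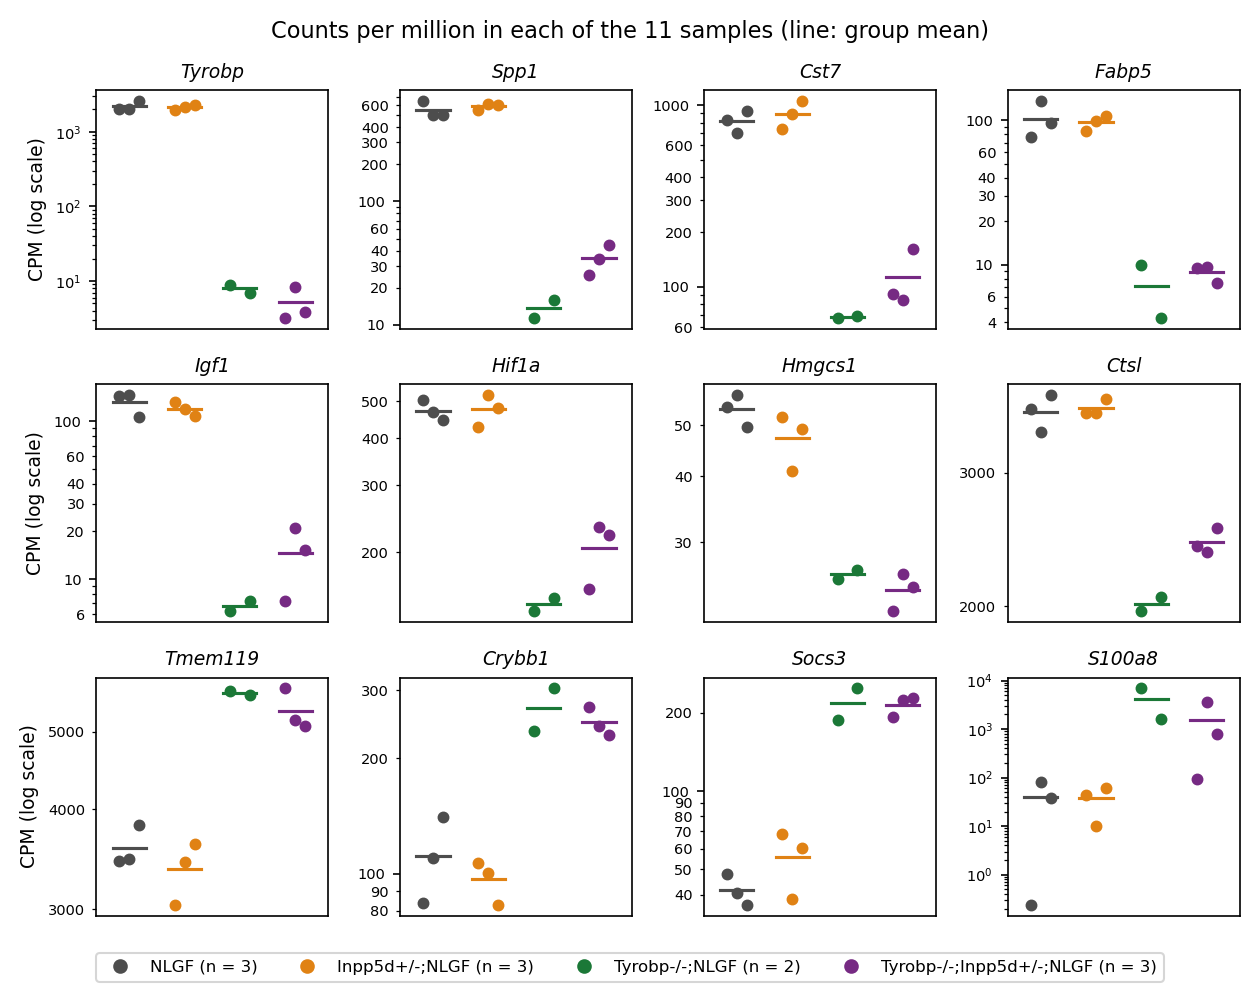
CPM (log scale) of 12 genes in each sample, by genotype, with a line at each group mean. Tyrobp and the DAM, cholesterol and lysosomal genes are lower in all 5 Tyrobp-/- samples, Tmem119, Crybb1 and Socs3 are higher in all 5, and S100a8 ranges from 94 to 6920 CPM among the Tyrobp-/- samples.

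Genes of cholesterol synthesis and its control fell together. The pathway builds cholesterol from acetyl-CoA and is switched on by SREBP2, the product of Srebf2, when sterols are low. Of 24 members 14 fell and none rose (median log2 fold change -0.95). With the S100a8-rich pair left out, 11 fell (median -0.99), and with the neutrophil covariate 3 (median -0.98). The mean of the list per sample was -1.04 to -0.83 without Tyrobp and -0.29 to 0.25 with it. The 3 promoters below are shown because they belong to members that fell together. Capitals mark SREBP sites (TCACNCCAC, named SRE) and NF-Y boxes (CCAAT), searched on both strands, in the RefSeq windows of 250 bases before to 50 after the start (GRCm38.p6, 5′ to 3′ on the gene's strand).
Hmgcs1, chr13:119690101-119690400, plus strand: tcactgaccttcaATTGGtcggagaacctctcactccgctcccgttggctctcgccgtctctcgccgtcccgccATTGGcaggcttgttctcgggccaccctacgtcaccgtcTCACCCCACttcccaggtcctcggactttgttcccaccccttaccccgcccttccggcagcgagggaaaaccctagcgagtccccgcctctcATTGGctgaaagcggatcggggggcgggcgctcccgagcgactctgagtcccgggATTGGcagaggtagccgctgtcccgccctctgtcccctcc
Srebf2, chr15:82147019-82147318, plus strand: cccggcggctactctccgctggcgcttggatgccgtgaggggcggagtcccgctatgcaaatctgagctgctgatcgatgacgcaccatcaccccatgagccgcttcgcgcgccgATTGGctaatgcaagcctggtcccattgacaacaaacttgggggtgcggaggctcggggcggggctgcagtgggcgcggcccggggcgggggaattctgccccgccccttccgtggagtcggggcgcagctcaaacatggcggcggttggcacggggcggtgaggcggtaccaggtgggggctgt
Msmo1, chr8:64733529-64733828, minus strand: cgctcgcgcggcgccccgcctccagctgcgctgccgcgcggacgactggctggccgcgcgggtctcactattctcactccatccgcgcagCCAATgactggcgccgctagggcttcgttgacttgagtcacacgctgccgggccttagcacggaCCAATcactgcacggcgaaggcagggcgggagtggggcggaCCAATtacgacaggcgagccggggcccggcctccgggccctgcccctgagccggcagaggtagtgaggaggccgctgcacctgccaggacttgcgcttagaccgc
The Hmgcs1 window holds 1 SRE, at -137 from the start, and 4 CCAAT boxes, the Srebf2 window 1 CCAAT box and the Msmo1 window 3. Of 20 promoter entries of the list, 16 (80%) held a CCAAT box, as did 37.8% of the 15055 entries of the genes tested. For the SRE letters the shares were 5%, which is 1 entry, the Hmgcs1 window shown, and 1.14%. Among the 554 entries of all genes that fell, 36.5% held a CCAAT box and 2.17% the SRE letters. These matches describe letters and do not show binding.

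By role, the entry enzyme gene Hmgcs1 ran from 41 to 57.1 CPM (median 50.8) and was at 25.6, 26.6, 22.2, 26.1 and 24.7 CPM (log2 fold change -0.996, SE 0.097, adjusted p = 0.000331). The later enzyme gene Msmo1, a sterol methyl oxidase, ran from 157 to 217 CPM (median 182) and was at 112, 89.9, 116, 105 and 80.9 CPM (log2 fold change -0.86, SE 0.112, adjusted p = 0.00201). Dhcr7, which encodes a final reductase of the pathway, ran from 48.8 to 73.9 CPM (median 64.9) and was at 37.6, 29.1, 33.3, 33.1 and 39.7 CPM (log2 fold change -0.91). Srebf2 itself ran from 39.2 to 75.8 CPM (median 56) and was at 23.2, 21.8, 27.4, 25.8 and 23.8 CPM (log2 fold change -1.22, SE 0.14, adjusted p = 0.000896). In none of these 4 genes did the genotypes overlap, and the 5 Tyrobp-/- values lay close together. Other members that fell included Pmvk, Idi1, Fdps, Fdft1, Sqle, Cyp51, Sc5d, Insig1 and Stard4, with log2 fold changes from -0.68 (Fdft1) to -2.30 (Sqle).

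Among 31 genes of lipid uptake, storage and efflux 11 fell and 1 rose (median log2 fold change -0.22). Fabp5, a fatty acid binding protein gene, ran from 77 to 135 CPM (median 97) and was at 10, 4.29, 9.42, 9.65 and 7.5 CPM (log2 fold change -3.62, SE 0.25, adjusted p = 5e-05). Scd2, a fatty acid desaturase gene, ran from 165 to 281 CPM (median 201) and was at 63.9, 66.3, 72.5, 60.2 and 55.7 CPM (log2 fold change -1.74, SE 0.139, adjusted p = 0.000146). Nceh1, which hydrolyses cholesteryl ester, fell from 170 ± 8.7 to 67.1 ± 14.8 CPM, and the lipoprotein receptor gene Scarb1 from 149 ± 26.5 to 69.2 ± 4.94 CPM. Apoe, a lipid carrier, fell by 0.82 on the log2 scale with an adjusted p of 0.0476. The call was lost in 15 of 25 alternatives, among them the fit without the S100a8-rich pair (adjusted p = 0.126). With the neutrophil covariate Apoe passed, at -1.61 (adjusted p = 0.0382). The member that rose was the cholesterol exporter gene Abcg1 (log2 fold change 0.55, SE 0.0964, adjusted p = 0.0089). When the S100a8-rich pair was omitted, 7 fell and 1 rose.

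Lysosomal genes fell in part. Of 37 members 13 fell and 1 rose (median log2 fold change -0.26), and the list mean was -0.44, -0.40, -0.49, -0.36 and -0.28 in the Tyrobp-/- samples and between -0.10 and 0.05 in the others. Without the S100a8-rich pair, 9 fell and none rose. Lysosomal promoters often carry E-boxes, CACGTG, read by TFEB and TFE3, with TCACGTGA as the core of their CLEAR element. Both are in capitals, and overlap where the core holds the E-box, in the windows of 2 cathepsin genes that fell (same build, both strands searched).
Ctsd, chr7:142387778-142388077, minus strand: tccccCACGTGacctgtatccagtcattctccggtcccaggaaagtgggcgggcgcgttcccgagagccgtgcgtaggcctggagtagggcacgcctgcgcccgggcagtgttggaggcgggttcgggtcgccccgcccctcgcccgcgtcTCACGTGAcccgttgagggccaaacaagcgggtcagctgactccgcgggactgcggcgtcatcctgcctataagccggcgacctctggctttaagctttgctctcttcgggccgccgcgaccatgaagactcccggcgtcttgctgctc
Ctsl, chr13:64370471-64370770, minus strand: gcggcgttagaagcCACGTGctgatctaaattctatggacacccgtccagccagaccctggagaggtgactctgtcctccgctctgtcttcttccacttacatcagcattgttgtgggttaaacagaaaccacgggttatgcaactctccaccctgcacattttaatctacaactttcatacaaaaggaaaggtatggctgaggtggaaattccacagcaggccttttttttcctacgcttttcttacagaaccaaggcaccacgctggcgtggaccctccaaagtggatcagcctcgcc
An E-box was in 12 of 33 promoter entries of the lysosomal list (36.4%) and in 9.59% of all entries. The core was in 6 (18.2%) and in 1.66%. Among the entries of all genes that fell, the shares were 10.1% for the E-box and 3.07% for the core.

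Ctsl, an endosomal cysteine protease gene, ran from 3390 to 3800 CPM (median 3620) and was at 1970, 2060, 2400, 2360 and 2540 CPM (log2 fold change -0.70, SE 0.0576, adjusted p = 0.00016). Ctsb, a second cysteine protease gene, ran from 7700 to 8900 CPM (median 8030) and was at 5040, 5040, 5210, 5200 and 6560 CPM (log2 fold change -0.61, SE 0.0666, adjusted p = 0.000732). The aspartyl protease gene Ctsd ran from 23400 to 27300 CPM (median 26200) and was at 19100, 20800, 20100, 19900 and 21800 CPM (log2 fold change -0.35, SE 0.0466, adjusted p = 0.00213). Small as they were, these 3 shifts separated all Tyrobp-/- from all other samples. Gusb, beta-glucuronidase, fell from 883 ± 86.3 to 519 ± 29.6 CPM, and Gaa, the lysosomal alpha-glucosidase, from 175 ± 20.2 to 113 ± 16.9 CPM. Grn, progranulin, fell from 4460 ± 757 to 3210 ± 312 CPM (adjusted p = 0.0379), with overlap between genotypes. Atp6v0d2, a proton pump subunit gene, was at 2.7 to 10.1 CPM with Tyrobp and at 0, 0.925, 0.0377, 0.812 and 0 CPM without. Its call was lost in 15 of 25 alternatives. The member that rose was Lgmn, the asparaginyl endopeptidase (log2 fold change 0.30).

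Of 9 DAM stage 1 genes, those that rise without a need for TREM2, 6 fell and 1 rose (median log2 fold change -0.435). The iron storage gene Fth1 ran from 4140 to 5090 CPM (median 4750) and was at 2980, 3050, 2750, 2790 and 3970 CPM (log2 fold change -0.60). Cstb, a cytosolic cystatin gene, fell from 139 ± 7.21 to 103 ± 9.54 CPM. In Ctsb, Fth1 and Cstb compound replicate 3 was the highest Tyrobp-/- sample. The gene that rose was Lyz2 (log2 fold change 2.69, SE 0.504), a lysozyme gene that neutrophils and monocytes also express. After removal of the S100a8-rich pair, 2 members fell and none rose.

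Of 21 glycolysis genes 7 fell and none rose (median log2 fold change -0.42). Hif1a, the transcription factor of hypoxia and glycolytic induction, ran from 428 to 520 CPM (median 474) and was at 140, 152, 160, 232.9 and 223 CPM (log2 fold change -1.42, SE 0.128, adjusted p = 0.000206). Pkm, a pyruvate kinase gene, ran from 607 to 948 CPM (median 838) and was at 500, 370, 376, 505 and 463 CPM (log2 fold change -0.86, SE 0.138). Gapdh, often used as a reference gene, fell from 1680 ± 189 to 1190 ± 103 CPM (log2 fold change -0.49, adjusted p = 0.0113). Pfkl, a phosphofructokinase gene, fell from 189 ± 19.3 to 130 ± 14.8 CPM. Without the 2 samples with most S100a8 2 of the list fell (median -0.43). With the neutrophil covariate, which left 57 calls over all genes tested, none passed. Of 33 oxidative phosphorylation genes 3 fell (Cox8a, Cox6a1 and Sdha, median of the list -0.07), and of 31 ribosomal protein genes 5 fell (median -0.18), among them Rps2 (662 ± 104 to 413 ± 29.7 CPM) and Rpl23 (268 ± 18.2 to 184 ± 20.6 CPM). Without the same pair the counts were 0 and 1. Over all genes tested 2.91% fell.

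Among 28 transcription factors of microglia 3 fell and 3 rose (median log2 fold change 0.06). Bhlhe40, a repressor of the basic helix-loop-helix family, ran from 60.7 to 91.1 CPM (median 72.5) and was at 9.26, 3.63, 2.49, 4.86 and 4.93 CPM (log2 fold change -3.87, SE 0.32, adjusted p = 0.00016). Hif1a and Srebf2 were the other factors that fell. Those that rose were Atf3 (74.2 ± 8.66 to 125 ± 14.1 CPM), Tfeb (log2 fold change 0.52) and Sall3 (0.95). With the S100a8-rich pair left out, 3 fell and 1 rose.

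Of 29 homeostatic genes 11 rose, none fell and 18 did not pass (median log2 fold change 0.14), and 10 of the 29 had negative estimates. DESeq2 and limma-voom called 11 members higher and 2 lower, and 1 member rose against a fold of 1.5 or with the neutrophil covariate. The list mean was 0.20 to 0.27 in the Tyrobp-/- samples and -0.12 to 0.06 in the others. Tmem119, a microglial surface protein gene, ran from 3040 to 3830 CPM (median 3460) and was at 5630, 5570, 5670, 5170 and 5090 CPM (log2 fold change 0.65, SE 0.0535, adjusted p = 0.00016). Sparc, a matricellular protein gene, ran from 2800 to 3160 CPM (median 3050) and was at 3930, 4230, 4170, 4010 and 4270 CPM (log2 fold change 0.45, SE 0.0447, adjusted p = 0.000377). Crybb1, a crystallin gene enriched in microglia, ran from 83 to 140 CPM (median 104) and was at 236, 304, 272, 243 and 229 CPM (log2 fold change 1.32, SE 0.134, adjusted p = 0.000423). Ltc4s, leukotriene C4 synthase, rose from 114 ± 7.95 to 178 ± 22.8 CPM. None of these 4 overlapped between genotypes. P2ry12 and Cx3cr1, receptors that define homeostatic microglia, did not pass (log2 fold change 0.09 and 0.14, adjusted p = 0.599 and 0.321). When the S100a8-rich pair was omitted, 6 members rose.

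Immediate early genes, which respond within minutes to stimulation and to tissue dissociation, were higher. Of 30 members 13 rose and 1 fell (median log2 fold change 0.68). Socs3, the feedback inhibitor of cytokine signalling through STAT3, ran from 36.6 to 68.6 CPM (median 44.2) and was at 188, 248, 192, 224 and 229 CPM (log2 fold change 2.14, SE 0.166, adjusted p = 0.000116). Junb, an AP-1 subunit gene, ran from 244 to 333 CPM (median 298) and was at 480, 571, 540, 603 and 644 CPM (log2 fold change 0.94, SE 0.0945, adjusted p = 0.000398). For Fos the log2 fold change was 2.34 (SE 0.351) and for Egr1 1.57 (SE 0.256). Egr2, a zinc finger factor of the same family as Egr1, was the member that fell, from 38.8 to 67.3 CPM (median 49.1) to 22.7, 13.3, 13.2, 8.82 and 16.5 CPM (log2 fold change -1.76, SE 0.234, adjusted p = 0.00217). The summed level of the list ran from 3070 to 8660 CPM among Tyrobp-intact samples and was 9280 to 13300 CPM in the Tyrobp-/- samples. How dissociation differed between samples was not tested. Without the S100a8-rich pair, 8 rose and 1 fell.

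**Figure D4:**
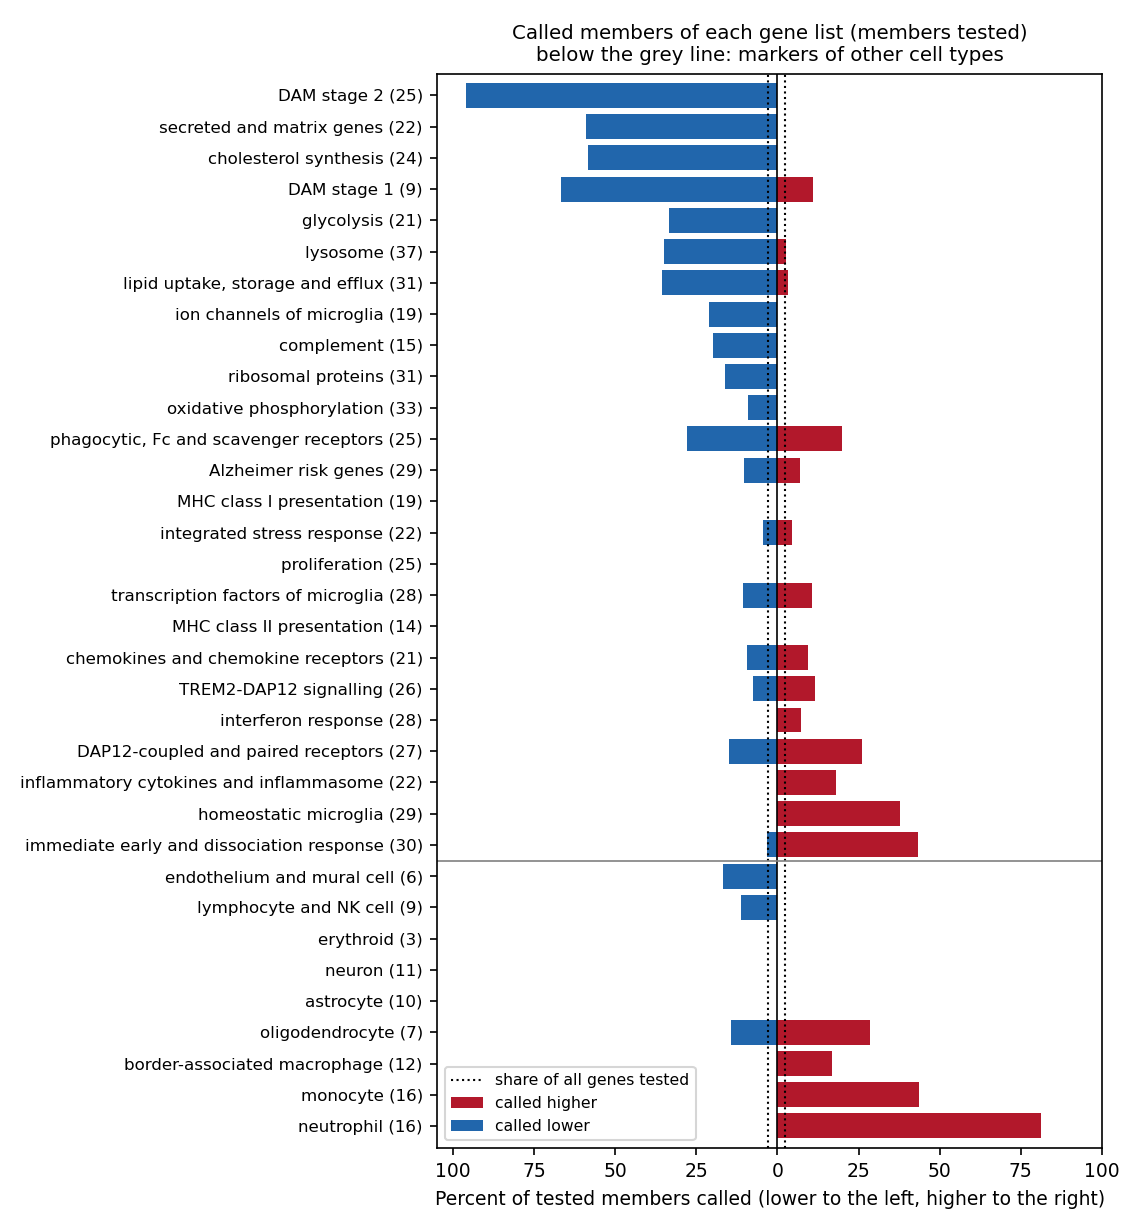
Percent of the tested members of each gene list that were called lower (blue, left) or higher (red, right) without Tyrobp, with dotted lines at the shares over all genes tested (2.91% lower, 2.45% higher) and the number of members tested in brackets. The DAM stage 2, secreted, cholesterol, lysosomal and glycolysis lists extend to the left, the homeostatic and immediate early lists to the right, and the neutrophil and monocyte marker lists, below the grey line, to the right.

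Of 26 genes of TREM2 and DAP12 signalling, 3 rose and 2 fell (median log2 fold change -0.01). Fyn, a Src family kinase gene, ran from 12.7 to 27.3 CPM (median 17.9) and was at 6.23, 11.3, 5.75, 11.7 and 5.25 CPM (log2 fold change -1.20, SE 0.265, adjusted p = 0.0274), and Hcst was the other that fell. Dok3, an adaptor that restrains ITAM signalling, ran from 12 to 25.5 CPM (median 15.6) and was at 54.6, 47.9, 32.1, 39.4 and 32.4 CPM (log2 fold change 1.34, SE 0.181, adjusted p = 0.00234). Lyn rose by 0.30 on the log2 scale, a call that was lost in 15 of 25 alternatives. The exchange factor gene Vav3 had counts in 1 of the 6 Tyrobp-intact samples (0.0204 CPM) and was at 0.558, 1.46, 0, 3.3 and 1.95 CPM without Tyrobp (adjusted p = 0.0114). After removal of the S100a8-rich pair, 1 member rose and 2 fell.

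Of 29 genes of DAP12-coupled and paired receptors, 27 passed the filter, 7 rose and 4 fell (median log2 fold change 0.59). Reads of these related genes may be divided between family members, or counted for several of them. Pirb, an inhibitory receptor for MHC class I, ran from 10.6 to 21.2 CPM (median 15.3) and was at 71.6, 42.4, 40.8, 55.5 and 33.5 CPM (log2 fold change 1.68, SE 0.23, adjusted p = 0.00254). Siglece, an inhibitory sialic acid receptor gene, ran from 37.4 to 50.9 CPM (median 45.6) and was at 104, 84.6, 77.4, 65.9 and 73.8 CPM (log2 fold change 0.86). Cd300a, an inhibitory receptor for phosphatidylserine, rose from 227 ± 30.2 to 338 ± 34.7 CPM (log2 fold change 0.59, SE 0.0843). Siglecf went the other way, from 76.2 to 163 CPM (median 101) to 43.9, 40.6, 43.8, 33.3 and 43.5 CPM (log2 fold change -1.35, SE 0.152, adjusted p = 0.00082). All 4 were free of overlap. The list mean was 1.88, 1.72, 0.28, 1.44 and 1.09 in the Tyrobp-/- samples and -0.45 to 0.60 in the others, and compound replicate 1 lay within the Tyrobp-intact range. That sample also had the smallest neutrophil list mean among the 5, and whether the 2 lists are linked was not tested. With a neutrophil covariate the list median was 0.16 and none of its members passed, in a fit that called 57 of 20390 genes. In the fit without the S100a8-rich pair, 3 members rose and 2 fell.

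Phagocytic, Fc and scavenger receptors moved both ways (5 of 25 tested rose, 7 fell, median log2 fold change -0.14). Fcgr1, the high-affinity IgG receptor gene, ran from 331 to 380 CPM (median 347) and was at 477, 468, 551, 460 and 501 CPM (log2 fold change 0.48, SE 0.0656, adjusted p = 0.00234). Colec12, a scavenger receptor gene, was at 0.522 to 9.99 CPM and at or below 0.0398 CPM without Tyrobp. With the S100a8-rich pair left out, 2 of this list rose and 4 fell. In the complement list 3 of 15 tested genes fell, among them Itgax and Itgb2 (845 ± 67.5 to 617 ± 54 CPM). In the ion channel list 4 of 19 fell. Kcnj2, the inward rectifier potassium channel Kir2.1, ran from 149 to 226 CPM (median 205) and was at 49.3, 38.9, 36.6, 107 and 47.4 CPM (log2 fold change -1.86, SE 0.258, adjusted p = 0.00269), and the chloride channel gene Clic4 and the ATP-gated channel gene P2rx4 fell by 0.81 and 0.49 on the log2 scale. When the S100a8-rich pair was omitted, 2 of these 4 channel genes did not pass.

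Inflammatory genes were divided into several lists. Over all genes tested 2.45% rose and 2.91% fell, and calls of a few members are not read as a change of a list. Of 22 tested cytokine and inflammasome genes 4 rose (median log2 fold change 0.29). Tnf ran from 2.67 to 8.72 CPM (median 4.33) and was at 8.5, 13.9, 18.3, 14.2 and 14.2 CPM, with overlap (log2 fold change 1.49, SE 0.278, adjusted p = 0.012). Nfkb1 rose from 89.2 ± 9.97 to 137 ± 22.1 CPM, the inflammasome sensor gene Nlrp3 from 24.7 ± 7.86 to 45.8 ± 4.83 CPM and the receptor gene Il10ra from 452 ± 78.3 to 663 ± 87.7 CPM. Among 21 tested chemokines and their receptors 2 rose, among them Ccl12, and Ccl3 and Ccl6 fell. Ccl3 went from 274 ± 69.4 to 172 ± 19.1 CPM. Of 28 interferon response genes 2 rose, Ifit3b (10.3 ± 3.41 to 20.1 ± 3.69 CPM) and Xaf1 (23.7 ± 4.59 to 37.7 ± 7.67 CPM), both with overlap. None of 14 MHC class II, 19 MHC class I and 25 proliferation genes passed in edgeR. At an unadjusted p under 0.05 were 4, 6 and 3 of them, DESeq2 called 2, 5 and 2, and limma-voom 0, 1 and 0. Without compound replicate 1, 2 class II genes rose in edgeR. H2-Eb1, of class II, was at 124 ± 52.4 CPM without and 61.1 ± 18 CPM with Tyrobp (adjusted p = 0.0908), with 44.9 CPM in compound replicate 1 and 98.2 CPM or more in the other 4. With the neutrophil covariate its estimate was -0.09. Of 29 tested Alzheimer risk genes 2 rose, Abi3, a regulator of actin (192 ± 13.1 to 271 ± 19.3 CPM, log2 fold change 0.51), and Ms4a6d (123 ± 9.45 to 164 ± 13.3 CPM), and 3 fell, Apoe, Grn and Ctsb. Without the S100a8-rich pair, 2 cytokine genes rose, 1 gene of the chemokine list rose and 1 fell, no interferon gene rose, and 1 risk gene rose and 1 fell. Apoe (adjusted p = 0.126) and Grn (adjusted p = 0.113) did not pass there.

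The pooled coefficient also brought out genes that neither contrast within an Inpp5d genotype called. Son, a nuclear speckle splicing factor gene, ran from 109 to 147 CPM (median 123) and was at 177, 201, 200, 187 and 180 CPM (log2 fold change 0.60, SE 0.0834, adjusted p = 0.00278). Its log2 fold changes were 0.62 with both Inpp5d copies and 0.58 on Inpp5d+/-, with adjusted p of 0.0668 and 0.0601. Arrb2, beta-arrestin 2, ran from 60.3 to 74.5 CPM (median 68) and was at 116, 102, 92, 104 and 90.4 CPM (log2 fold change 0.59, SE 0.0802). Gpx1, a peroxide-reducing enzyme gene, ran from 487 to 799 CPM (median 620) and was at 1170, 1130, 906, 1080 and 933 CPM (log2 fold change 0.75, SE 0.111). Txnip, the thioredoxin-interacting protein that also limits glucose uptake, ran from 250 to 464 CPM (median 369) and was at 700, 782, 655, 724 and 634 CPM (log2 fold change 0.95, SE 0.142). These 4 genes separated the genotypes completely. On the side of the decreases, Amdhd2 and Chst10, both of sugar modification, fell from 56.2 ± 5.06 to 35.7 ± 3.07 and from 29.7 ± 6.83 to 9.92 ± 2.68 CPM. Dad1, a subunit of the N-glycosylation complex, ran from 249 to 290 CPM (median 262) and was at 177, 196, 196, 199 and 221 CPM (log2 fold change -0.43, SE 0.0638, adjusted p = 0.0037). Naa50, a protein acetyltransferase gene, fell from 85.4 ± 8.88 to 54.1 ± 6.75 CPM, and the lysosomal membrane protein gene Glmp from 441 ± 29.1 to 310 ± 30.2 CPM. Kcnj2, Dok3, Cd300a and Gaa, given above, belong to the same class. After removal of the S100a8-rich pair, Dad1 did not pass (adjusted p = 0.0552) and the other genes of this paragraph did.

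Near Tyrobp on chromosome 7, 24 of 293 tested genes within 10 Mb were called (8.19%), 13 higher and 11 lower, against 5.37% of all genes. Lgi4 (31059342 to 31070935, plus strand) and Fxyd3 (31068172 to 31076704, minus strand) overlap at their ends, so their reads may be mixed. Lgi4, a secreted protein gene of glia, ran from 0.72 to 2.84 CPM (median 1.81) and was at 18.9, 16.4, 25.1, 14.3 and 19.5 CPM (log2 fold change 3.45, SE 0.313, adjusted p = 0.000208). Fxyd3, a regulator of the sodium pump, ran from 0.403 to 1.54 CPM (median 0.921) and was at 9.16, 8.29, 12.8, 6.99 and 9.11 CPM (log2 fold change 3.40, SE 0.318). Mag, best known from oligodendrocytes, ran from 13.1 to 20.5 CPM (median 14.9) and was at 27.2, 36.6, 34.3, 35.1 and 31.1 CPM (log2 fold change 1.03, SE 0.156). In all 3 genes every Tyrobp-/- sample lay above every other sample, compound replicate 1 included. Passenger sequence around the targeted allele and loss of the protein cannot be told apart in these samples. Axl, given above with the DAM genes, lies in the same window. When genes within 10 Mb were left out of the fit, 1064 genes were called.

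Markers of neutrophils and monocytes, myeloid cells of the blood, were higher without Tyrobp. Of 16 neutrophil markers 13 rose (median log2 fold change 6.03), and of 16 monocyte markers 7 rose (median 3.37). These counts rested on few samples. Without the S100a8-rich pair 2 neutrophil markers (median 4.22) and 2 monocyte markers (median 2.57) rose, and S100a8 and Camp did not pass (adjusted p = 0.121 and 0.0827). Because that pair was picked for its S100a8, lower estimates of S100a8 and of genes that vary with it were fixed in advance. With 1 sample left out the neutrophil count was 3 without compound replicate 2, 7 without Tyrobp-/-;NLGF replicate 1 or Inpp5d+/-;NLGF replicate 2, and 8 without NLGF replicate 2 or 3 or Inpp5d+/-;NLGF replicate 1. The monocyte count was 3 without compound replicate 2 and 4 without any 1 of the NLGF or Tyrobp-/-;NLGF samples. Limma-voom with quality weights called 1 neutrophil and 8 monocyte markers. S100a8, an abundant granulocyte protein, ran from 0.24 to 80.9 CPM (median 40.7) with Tyrobp and was at 6920, 1600, 94, 3650 and 783 CPM without (log2 fold change 5.96, SE 1.27, adjusted p = 0.023). Camp, the antimicrobial peptide cathelicidin, was at 1480, 330, 20.5, 701 and 192 CPM, against 0.16 to 20.1 CPM. The Tyrobp-/- samples thus differed from each other by more than 10-fold in both genes, in the same order. Padi4, a histone-modifying enzyme gene of neutrophils, had counts in 1 of 6 Tyrobp-intact samples and was at 18.8, 4.03, 3.07, 12.8 and 0.623 CPM. Among monocyte genes Chil3 was at 1420, 307, 64, 744 and 201 CPM, against 3.15 to 38.4 CPM, and Plac8 at 74.1, 58.2, 17.5, 62.4 and 22.3 CPM, against 0.266 to 5.13 CPM. The summed neutrophil list was 19800, 4800, 504, 10400 and 2690 CPM, where the Tyrobp-intact samples held 364 to 577 CPM. Most of that lower sum was Csf3r, at 246 to 381 CPM, a receptor gene that did not pass (adjusted p = 0.494) and that microglia also express. No defining neutrophil marker of the 8 used was at 0 in any Tyrobp-/- sample.

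Markers of other cell types were low for some genes and not for others. With intact Tyrobp the summed lymphocyte and NK cell list was at 480 to 568 CPM, the astrocyte list at 177 to 273 CPM and the oligodendrocyte list at 165 to 208 CPM. Without Tyrobp these sums were 519 to 577 CPM, at most 276 CPM and 166 to 206 CPM. The oligodendrocyte gene Mbp was at 42 to 75.4 CPM with and 34.8 to 55.6 CPM without Tyrobp, and did not pass (adjusted p = 0.195). Cd3e, of T cells, had 0 counts in all 11 samples. The neuron gene Snap25 was at most 8.04 CPM and the astrocyte gene Aqp4 at most 2.65 CPM, and compound replicate 1 had the highest neuron list mean of the 11 samples, at 2.55 against -0.89 to 0.55. The endothelial receptor gene Flt1 fell from 6.08 to 15.8 CPM to 0, 0, 0.0377, 0.143 and 2.61 CPM. Cspg4, a proteoglycan of oligodendrocyte precursors and pericytes, ran from 0.161 to 24.1 CPM with Tyrobp and had 0 counts in all 5 Tyrobp-/- samples. Its mean over the 6 Tyrobp-intact samples was 184-fold above the mean floor of 3 counts in these 5. The lowest of the 6, Inpp5d+/-;NLGF replicate 2 at 0.161 CPM, lay near its own floor of 0.0603 CPM. The NK cell receptor gene Klrb1c fell from 0.621 to 11.8 CPM to at most 0.342 CPM. Pecam1 of endothelium did not pass (adjusted p = 0.29), and Cldn5 was at most 0.226 CPM in any sample. Of 7 tested oligodendrocyte genes Mag and Mog rose, Mog to at most 1.64 CPM from 0 counts in all 6 Tyrobp-intact samples. Of 12 border-associated macrophage genes F13a1 and Clec4n rose, of which F13a1 is also on the monocyte list. Without the S100a8-rich pair Flt1 (adjusted p = 0.17), Cspg4 (0.0717), Klrb1c (0.132), F13a1 (0.275) and Clec4n (0.0842) did not pass. Flt1 lost its call in 15 of 24 alternatives and F13a1 in 15 of 25. The defining macrophage genes Mrc1, Cd163, Lyve1 and Pf4 did not pass. The part of these cells in the results above was not tested.

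The called genes were then described by size and by how they varied among the 5 Tyrobp-/- samples. Of the 114 genes called at least 8-fold higher, 93 (81.6%) had a range of 10-fold or more among the Tyrobp-/- samples. Of these 114, 52 reached 5 CPM on average in either Tyrobp genotype, and 43 of the 52 (82.7%) had such a range, against 1.76% of all 10825 genes at that level. The choice of genes by their fold over these samples is part of both shares. Of the 93 genes called 2- to 8-fold higher 4 had such a range, and of the 293 called under 2-fold higher none had. Among the decreases it was 0 of 404 under 2-fold, 3 of 140 at 2- to 8-fold and 32 of 50 at 8-fold or more, whose mean level without Tyrobp had a median of 0.434 CPM, near the floor of 0.0477 to 0.1 CPM that 3 counts give. With the neutrophil list mean as a covariate the median log2 fold change of the 114 genes went from 6.00 to 2.46, and without the S100a8-rich pair to 4.72. The 114 include genes averaged in that covariate, and S100a8, by which the pair was picked, so part of both shifts was fixed in advance. The same settings moved the median of the 293 small increases from 0.591 to 0.547 and 0.576, of the 404 small decreases from -0.581 to -0.595 and -0.594, and of the 50 large decreases from -4.73 to -4.65 and -4.68. The covariate was higher in 4 of 5 Tyrobp-/- samples than in any other sample. With it the median SE went from 0.16 to 0.273 among the 500 increases and from 0.133 to 0.24 among the 594 decreases. The number of calls fell to 57 with the covariate, 51 of them among the 1094, and to 351 without the S100a8-rich pair, 334 of them among the 1094. Of the 1094 genes, 1077 kept their direction with the covariate.

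S100a8, Camp and Padi4 are themselves among the genes averaged in the covariate, so their estimates with it had to shrink and are not given. Most genes lost their call with the covariate, and some passed, Apoe among them (-1.61, adjusted p = 0.0382). Spp1 had an estimate of -4.15 (SE 0.458, adjusted p = 0.00971), Bhlhe40 -4.99 (adjusted p = 0.00117), Fabp5 -3.89 (adjusted p = 0.00971), Socs3 2.02 (adjusted p = 0.0285), Tmem119 0.67 (adjusted p = 0.0286) and Ctsl -0.59 (adjusted p = 0.0463). Among genes described above that did not pass with it were Igf1 (-3.71, adjusted p = 0.0523), Mamdc2 (-5.10, adjusted p = 0.272), Itgax (-3.01, adjusted p = 0.157), Lpl (-2.88, adjusted p = 0.123), Clec7a (-2.12, adjusted p = 0.17), Fos (2.02, adjusted p = 0.319), Junb (0.93, adjusted p = 0.0684) and Sparc (0.46, adjusted p = 0.0612). Of the inhibitory receptor genes, Pirb went from 1.68 to 1.14, Siglece from 0.86 to 0.81 and Cd300a from 0.59 to 0.52, and the adaptor gene Dok3 went from 1.34 to 0.89. None of these 4 passed with the covariate. Gpx1 went from 0.75 to 0.48 and Arrb2 from 0.59 to 0.37 without passing. Without the 2 samples with most S100a8 these 6 genes passed, with adjusted p from 0.0153 in Siglece to 0.0446 in Gpx1.

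**Figure D5:**
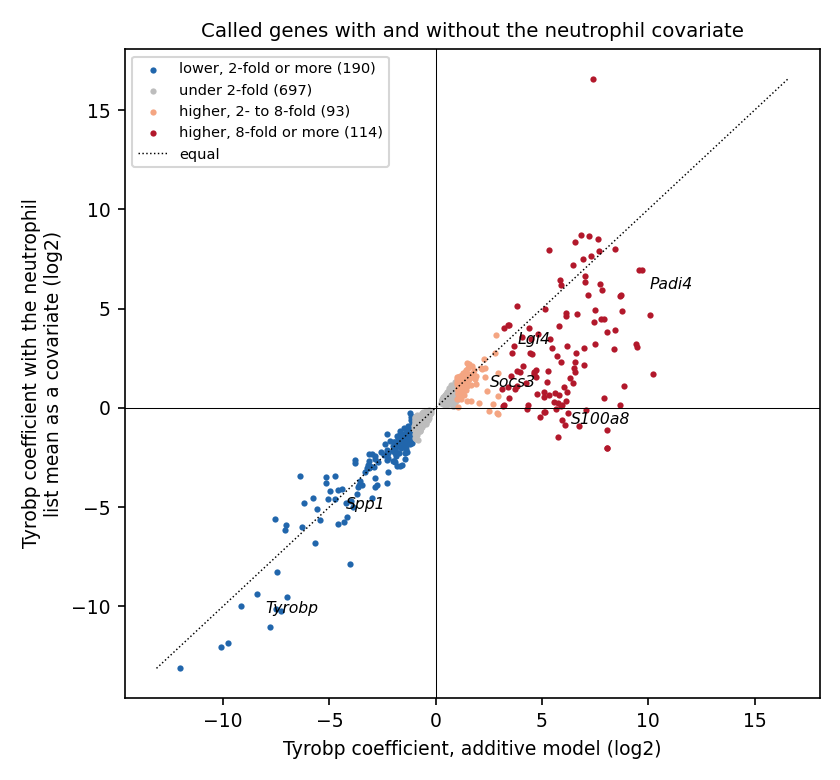
Log2 Tyrobp coefficient of the 1094 called genes in the additive model (horizontal) and with the neutrophil list mean as a covariate (vertical), coloured by direction and size, with a dotted line where both are equal. With the covariate the estimate was under 50% of its size, or of opposite sign, in 66 of the 114 genes called at least 8-fold higher, 13 of 93 called 2- to 8-fold higher, 16 of 293 called under 2-fold higher and 13 of 594 called lower. The 114 include genes averaged in the covariate, such as S100a8 and Padi4, whose estimates had to shrink.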

How the data were processed

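RNA of sorted mouse microglia was measured in 11 samples. The authors deposited 1 table of raw counts per gene. Per the submitters' processing notes, reads were processed with STAR 2.7.3a and featureCounts 1.6.4 on GRCm38.p6. RNA was extracted with an RNeasy Plus Micro kit and cDNA was made with SMART-Seq v4, which does not mark strand, per the labels' protocols. For the annotation release, strand setting and multi-mapping reads, no value is given in the sources used here. All 37 mitochondrial rows of the table are at 0.

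Genotypes were taken from the labels, and samples were numbered in accession order, which pairs nothing. Counts were tested with edgeR 4.0.16 in R 4.3.3 (TMM scaling, filterByExpr with a minimum count of 10 and a minimum total of 15, quasi-likelihood test). The additive design had a Tyrobp and an Inpp5d term, and p values were adjusted by Benjamini-Hochberg over all 20390 genes tested. Contrasts within an Inpp5d genotype and the interaction came from a model with 1 coefficient per group. SE is the log2 fold change divided by the square root of F, and CPM are counts scaled to a common library size on TMM-scaled totals. Values after ± are SD over 5 Tyrobp-/- or 6 Tyrobp-intact samples. List means were taken on log2(CPM + 0.1). Floors of 3 counts cover counting error only. The model code was tested on simulated data.

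The members and gene lists were chosen with earlier results of these data known. Named genes were Tyrobp, Hcst, Inpp5d, Trem2 and App, and, where described, the 15 largest called changes per direction without overlap and with at least 5 CPM in 1 Tyrobp genotype. To these came up to 10 genes per direction called by the pooled coefficient and by neither contrast, up to 4 genes of smallest p per list (2 for other cell types), and 5 per direction of smallest SE. Further list members (such as Lpl, Apoe, Abcg1, Fos, Egr1, Lyz2, P2ry12 and the remaining cholesterol genes) were named after their values were seen. Alternatives were RLE and upper-quartile scaling, filters, DESeq2 1.42.0, limma-voom (limma 3.58.1), other designs and thresholds, a neutrophil covariate, 1 surrogate variable (sva 3.50.0), genes within 10 Mb of Tyrobp left out, and samples left out. Promoter sequences and coordinates are from RefSeq (GRCm38.p6), matched by symbol for 11828 of the genes tested. Some genes that the rule names are not reported here.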

Additional observations from a re-analysis of the deposited data

Results flagged for a closer look

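A sample was listed where it lay far from the others of its Tyrobp genotype by Dixon's test at 95%. Of 324 groups of values 33 were listed, 18 of them in Tyrobp-/- samples, and chance lists about 1 in 20 groups. Compound replicate 3 was listed 7 times and compound replicate 1 6 times.

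Compound replicate 3 was the highest Tyrobp-/- sample for several genes that fell. Ctsb was at 6560 CPM there, against 5040 to 5210 CPM in the other 4. Fth1 was at 3970 CPM, against 2750 to 3050 CPM, and Cstb at 120 CPM, against 96.5 to 101 CPM. Flt1 was at 2.61 CPM, Dkk2 at 0.181 CPM and Klrb1c at 0.342 CPM, each against at most 0.143, 0.0185 and 0.0199 CPM. The MHC class I list mean was 0.464 there and -0.144 to 0.0211 in the other 4.

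Compound replicate 1 had the highest list means of neuron genes (2.55, against -0.894 to -0.316 in the other Tyrobp-/- samples) and astrocyte genes (1.65, against 0.0369 to 0.248). It had the lowest means for TREM2-DAP12 signalling (-0.301, against 0.152 to 0.2), complement (-0.302, against 0.549 to 0.718) and phagocytic receptors (-0.672, against -0.0511 to 0.194). Apoe was at 97.7 CPM there and at 172 to 204 CPM in the other 4.

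In the remaining Tyrobp-/- samples, Gpnmb was high in Tyrobp-/-;NLGF replicate 1 (1.45 CPM), and Naa50 (66 CPM) and Hs3st1 (0.0185 CPM) were high in Tyrobp-/-;NLGF replicate 2. In compound replicate 2 Kcnj2 was high (107 CPM, against 36.6 to 49.3 CPM) and Siglecf low (33.3 CPM, against 40.6 to 43.9 CPM).

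Among Tyrobp-intact samples, NLGF replicate 1 was low for Camp (0.16 CPM, against 7.77 to 20.1 CPM) and Cox8a (233.3 CPM). NLGF replicate 2 was low for the list means of lysosome (-0.0975), TREM2-DAP12 signalling (-0.12) and complement (-0.637) genes. Lilrb4a was low in NLGF replicate 3, at 35.3 CPM against 78.6 to 96.3 CPM. Inpp5d+/-;NLGF replicate 1 was low for Ctsd (23400 CPM) and the only one of the 6 with counts of Vav3 (0.0204 CPM), Padi4 (0.0409 CPM) and Clec4n (0.204 CPM). Vav3 and Padi4 lay there under the floor of 0.0613 CPM that 3 counts give. Inpp5d+/-;NLGF replicate 2 was low for Cspg4 (0.161 CPM, against 6.03 to 24.1 CPM), Naa50 (69.1 CPM) and the oligodendrocyte list mean (-1.52). Inpp5d+/-;NLGF replicate 3 was high for Ccl3 (411 CPM, against 227 to 278 CPM) and for the monocyte list mean (1.76).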

How the results depend on the processing

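The 1094 calls (500 higher, 594 lower) became 2229 with DESeq2 (1133 and 1096), 148 when tested against a fold of 1.5 (54 and 94), 1760 at an adjusted p of 0.1 (847 and 913) and 709 with 1 surrogate variable (283 and 426). They became 57 with the neutrophil covariate (19 and 38) and 351 without the S100a8-rich pair (Tyrobp-/-;NLGF replicate 1 and compound replicate 2) (117 higher). Scaling by RLE (1084) or the upper quartile (1108), limma-voom (1308), a stricter (1200) or absent filter (824), no Inpp5d term (1170), 1 coefficient per group (968) and leaving out 10 Mb around Tyrobp (1064) stayed within 1.5 times. Lower calls were 54.3% of the total, 63.5% against a fold of 1.5, and 66.7% both with the covariate and without that pair. Leaving out 1 sample gave 611 to 897 calls, 249 to 405 of them higher and 331 to 492 lower. The lowest totals were without Tyrobp-/-;NLGF replicate 2 (611) or 1 (613) and compound replicate 2 (720).

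With both Inpp5d copies the 176 calls became 29 without that pair and 33 to 200 with 1 sample left out (33 without Tyrobp-/-;NLGF replicate 1, 39 without 2, 88 and 108 without NLGF replicates 2 and 3). On Inpp5d+/- the 183 calls became 52, and 61 to 182 with 1 sample left out (61 and 67 without compound replicates 2 and 1, and 105, 78 and 89 without Inpp5d+/-;NLGF replicates 1, 2 and 3). A group left with 1 sample is assumed to vary like the others. Interaction calls were 0 to 1. Of 3166 values of 127 of the genes named over 14 alternatives and 11 samples left out, 2795 kept their direction and side of the threshold, 363 no longer passed, 4 newly passed and 4 changed sign. The changes of sign were App, at -0.1 to 0.0458 with 1 sample left out, without Inpp5d+/-;NLGF replicate 1 (0.0331) or 3 (0.0458) or compound replicate 1 (0.0236), and H2-Eb1 with the covariate (-0.0935). The causes were not tested. Genes near the floor of 0.0477 to 0.1 CPM are limited by depth. No paired analysis was possible because replicate numbers follow accession order and the labels pair no samples.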

Other observations

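Some uniform changes lay outside the groups described above. Psat1, an enzyme gene of serine synthesis, ran from 240 to 296 CPM (median 257) with intact Tyrobp and was at 123, 114, 130, 128 and 112 CPM without, in the same order of samples (edgeR log2 fold change -1.11, SE 0.0788, adjusted p = 5.84e-05). Asns, which makes asparagine and like Psat1 is on the list of 22 integrated stress response genes, rose from 1.27 to 4.28 CPM to 5.91 to 8.82 CPM (log2 fold change 1.54, adjusted p = 0.02). These were the members of that list that passed, 1 in each direction, where 2.45% of all genes tested rose and 2.91% fell. Asns did not pass without the S100a8-rich pair (adjusted p = 0.116).

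Otulinl, a paralogue of the deubiquitinase gene Otulin, ran from 624 to 808 CPM (median 722) and was at 1100, 1070, 1130, 1060 and 1050 CPM (log2 fold change 0.60, SE 0.0624, adjusted p = 0.000471). Taldo1, of the pentose phosphate pathway, rose from 187 ± 23.6 to 271 ± 14.3 CPM, and the immunity-related GTPase gene Igtp from 76 ± 4.64 to 117 ± 13 CPM. Hsd17b12, of fatty acid elongation, ran from 187 to 208 CPM (median 198) and was at 115, 130, 118, 126 and 137 CPM (log2 fold change -0.66, SE 0.0669, adjusted p = 0.000443). Ptpra, a receptor phosphatase gene, fell from 303 ± 16.5 to 209 ± 15.3 CPM. In all 5 genes of this paragraph the Tyrobp genotypes did not overlap, and all 5 passed without the S100a8-rich pair.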
